A study of Mus musculus with 6 samples.

Results

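The heat shock and chaperone families were described in tumor cells of the mouse colon carcinoma line MC38 that had grown in mice. The group took in the protein coding genes of the deposited table named as heat shock factors 1 and 2, cytosolic and mitochondrial heat shock proteins of the HSP90, HSP110, HSP70, HSP60, HSP10 and small HSP classes, J-proteins (Dnaja, Dnajb and Dnajc genes) and subunits of the chaperonin TRiC. Hspa5, Hspa13, Dnajb9, Dnajb11 and Dnajc3, chaperones of the endoplasmic reticulum, were left out by the same rule, and 76 of the 52636 genes in the table remained. They were chosen by name and not by any measured value. A further 12 rows with matching names were not typed as protein coding, among them pseudogenes and Cct6a.

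The 3 control libraries came from tumors of the M1E5-Thy1.1 line and the 3 other libraries from tumors of the MC-38 M1E5-Zfx-KO-Thy1.2 line, in which Zfx, an X-linked zinc finger transcription factor, had been targeted with CRISPR ribonucleoproteins. Both lines were grown subcutaneously in female mice aged 6 to 10 weeks, and neither group was treated. The tumors were digested for 45 min at 37 °C with collagenase, dispase and DNase, and RNA was taken from sorted tumor cells. The genotype and the form of the surface protein Thy1 changed together between the groups, so they cannot be told apart. The series title speaks of knockout clones, and the labels give neither the number of clones nor the mouse behind each library. The p-values therefore describe variation among these libraries, which could be technical.

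Chaperones bind unfolded or newly made proteins and help them fold, assemble or be degraded. HSP70 proteins do so in cycles driven by ATP, J-proteins deliver substrates to them and start the cycle, HSP110 proteins exchange the nucleotide, HSP90 takes over late folding steps of kinases and receptors, and TRiC encloses actin, tubulin and other proteins in a double ring. When unfolded proteins build up, heat shock factor 1 (Hsf1) binds heat shock elements in the promoters of inducible members and raises their transcription, and many tumors keep this pathway active without heat.

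A heat shock element is built from repeats of GAA facing in alternating directions. Pieces of 6 promoters are shown. Those of Hspa1a and Hspa1b belong to an inducible pair whose genes stand beside each other and yet differ in their values. Those of Hspe1, Hsph1, Dnajb6 and Dnaja1 are shown because a match to the motif was found. None of these last genes was called in the test described below. Dnajb1, Hsp90aa1 and Hspa8 were looked up in the same way and gave no match to show. They were read from RefSeq promoters on the build GRCm38.p6, 5′ to 3′ on the strand of the gene, and capitals mark the paired units GAANNTTC or TTCNNGAA.
Hspa1a, chr17:34972157-34972356, minus strand: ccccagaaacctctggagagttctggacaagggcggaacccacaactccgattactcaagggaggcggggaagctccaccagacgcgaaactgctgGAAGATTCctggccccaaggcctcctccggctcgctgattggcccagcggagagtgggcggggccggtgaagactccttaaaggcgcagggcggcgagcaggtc
Hspa1b, chr17:34959239-34959438, minus strand: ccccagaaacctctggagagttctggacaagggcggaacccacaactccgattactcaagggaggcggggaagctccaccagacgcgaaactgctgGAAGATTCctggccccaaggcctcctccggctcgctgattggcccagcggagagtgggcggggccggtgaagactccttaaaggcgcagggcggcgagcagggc
Hspe1, chr1:55088053-55088082, plus strand: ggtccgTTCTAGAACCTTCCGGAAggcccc
Hsph1, chr5:149636351-149636380, minus strand: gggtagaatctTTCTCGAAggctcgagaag
Dnajb6, chr5:29735843-29735872, plus strand: cagctccgaGAATCTTCCGGAAcgctagac
Dnaja1, chr4:40722333-40722362, plus strand: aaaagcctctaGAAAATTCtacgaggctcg

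The 200 bases before the starts of Hspa1a and Hspa1b were identical at 199 positions, or 99.5%, and the only difference lay 2 bases before the start. In both promoters the marked unit began 104 bases before the start. None of these bases is exonic in GENCODE M21, whereas the 30-base pieces of Hspe1, Dnajb6 and Dnaja1 lie wholly, and that of Hsph1 with 26 bases, within exons of some annotated transcript. Of the 76 genes, 62 had an entry in the promoter table. The longer motif GAANNTTCNNGAA, searched on both strands of the 250 bases before the start, was found in 3 of these 62 (Hspd1, Hspe1 and Dnajb6), against 0.514% of all 27025 genes with an entry. The matches of Hspd1 and Hspe1 are the same 18 bases, counted for each gene. The shorter paired unit, which lies within the longer motif, was found in 17 of the 62, against 14.5% of all genes. It was present in 5 of 12 genes that had a higher level in libraries labelled Zfx-KO, in 5 of 21 that were lower and in 6 of 24 that passed the test in neither direction. A match of letters is a description of the window only.

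Of the 76 genes, 71 had enough reads to be tested. Between the groups, 14 were higher and 24 had lower levels in libraries labelled Zfx-KO (limma, two-sided, Benjamini-Hochberg adjusted p under 0.05 over 20094 genes), and 33 passed the test in neither direction. The share called was 53.5%, beside 44.4% of all genes tested. By direction, 19.7% of the chaperone genes were called higher, beside 24.9% of all genes, and 33.8% were called lower, beside 19.5% of all genes. Most of these genes are abundant, and among genes with a mean of at least 3 log2 CPM (reads of a gene relative to the depth of its library) the 2 sets were close: 55.6% of 54 chaperone genes were called, 9 higher and 21 lower, beside 57.9% of 9688 genes, with 25% higher and 32.9% lower. A change of at least 2-fold was called for 5 chaperone genes upward and 6 downward, beside 15.3% of all genes in either direction, 11.6% upward and 3.65% downward. Of the 14 genes called higher, 3 (Hspb1, Hspb2 and Hspb7, all among the 5) had controls within 1 log2 unit of the floor of the table, so that they entered the test through the other group alone and had to differ. All 3 libraries labelled Zfx-KO lay above all controls for 18 of the 71 chaperone genes tested and below all controls for 31. Over all genes tested the groups did not overlap for 54.1%, with 30.7% above and 23.5% below. With a mean of at least 3 log2 CPM, 11 of 54 chaperone genes lay above and 27 below, beside 2800 and 3594 of all 9688.

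The median log2 fold change of the 71 genes was -0.10, beside 0.09 over all genes tested. The scaling bears on this. The median of all genes was 0.21 log2 units higher in the libraries labelled Zfx-KO. When the medians were made equal, the chaperone genes had 10 calls upward and 38 downward, so that 20.8% of calls were upward in place of 36.8%. The shift was shared by the whole table. Upward calls over all genes tested were 33.6% in place of 56%. Among genes with a mean of at least 3 log2 CPM they were 17.1% in place of 43.2%. Counts at equal medians given below stand beside these shares. Quantile normalization, which gives all libraries the same distribution of values, left the chaperone genes with 13 calls upward and 25 downward. Upward calls were then 34.2% for the chaperone genes and 47.5% for all genes tested. Equal medians also turned the sign of several small values, and for those of the 76 genes described below whose call or sign changed, the outcome at equal medians is given. The plot of fold changes by class shows that the downward calls included 6 of 9 TRiC genes and both heat shock factors. They also included 3 of the 8 genes whose proteins work in mitochondria, which the plot does not group. The type B J-proteins held 4 and the HSP70 genes 3 of the 14 upward calls.

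**Figure D1:**
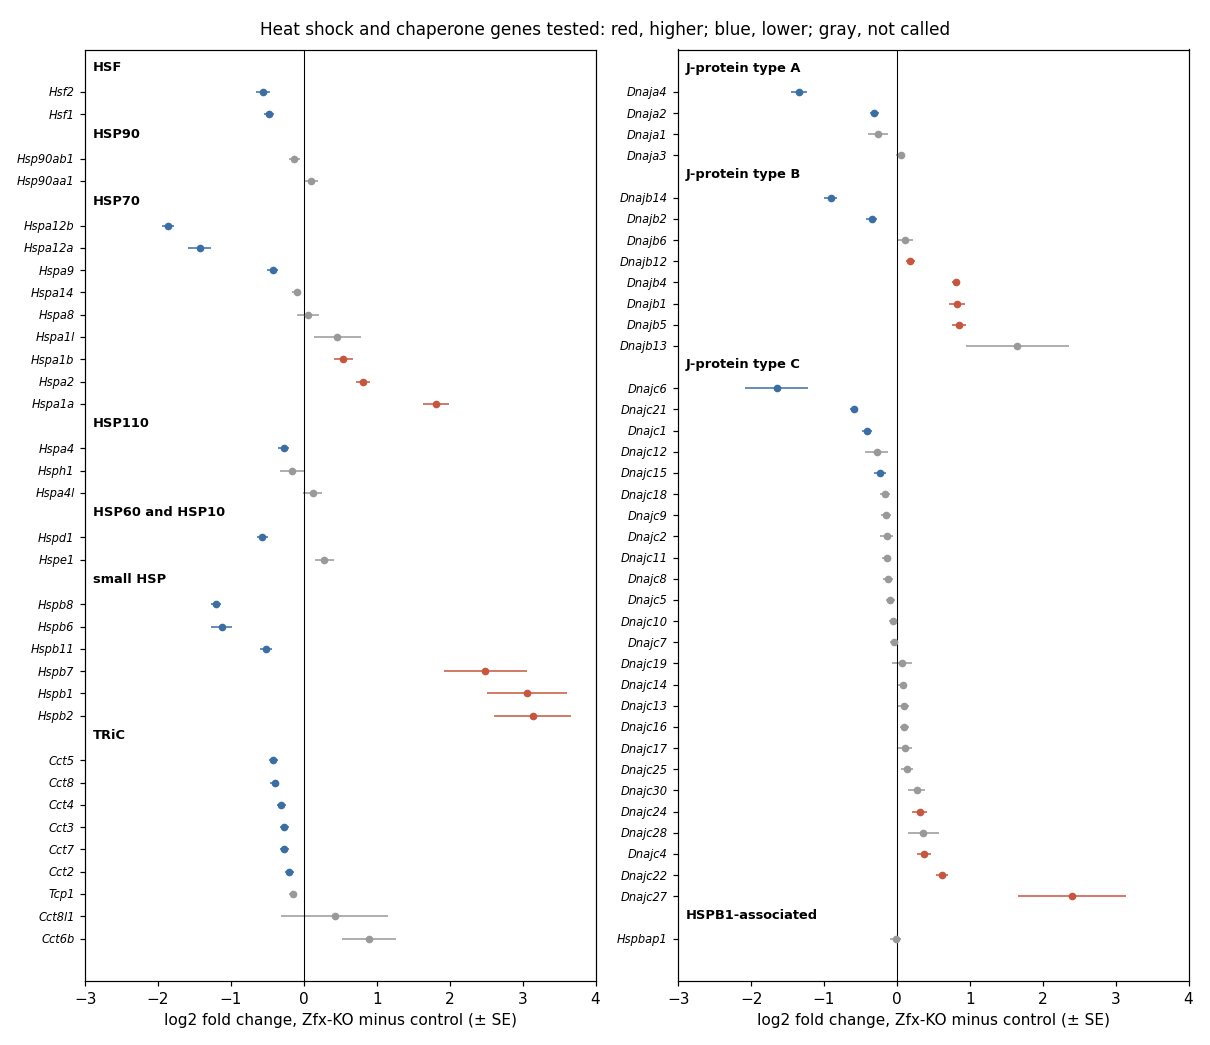
Log2 fold change (horizontal axis, libraries labelled Zfx-KO minus control, log2 CPM; bars, standard error from limma, 3 libraries a group) of the 71 chaperone genes tested, by class. Red points are called higher, blue points lower and gray points neither. The 6 called TRiC genes sit between -0.42 and -0.20, and the largest changes with narrow bars are those of Hspa12b (-1.86) and Hspa1a (1.81).

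The depth was 37763096 to 65050908 reads a library, so that 3 reads stood for 0.0461 to 0.0794 CPM. Zfx, the targeted gene, had 5.68, 5.88 and 5.46 log2 CPM in control replicates 1 to 3 and 6.30, 6.41 and 6.22 in those labelled Zfx-KO, so that it was higher and not lower there (log2 fold change 0.64, SE 0.10, adjusted p = 0.000473 by limma; exact permutation p = 0.1, two-sided, the smallest that 3 against 3 allows). A read count over the whole gene does not show whether an edit disrupts the protein, and every direction below is drawn between libraries as labelled. Of the markers of colon epithelium, Cdx2 had 0 reads in all 6 libraries, Epcam 1 read in the controls and 3 in the others, and Krt18 and Krt20 had 0 reads in the controls. Of the 5 genes of this list with enough reads to test, 2 were called higher, Krt19 and Krt8 (control reads of 2, 0 and 3 against 524, 738 and 1309), and none lower. A marker with so few control reads entered the test through the other group. The 10 genes had a summed level of 2.74 to 3.82 CPM in controls and 17.3 to 23.5 CPM in those labelled Zfx-KO. Markers of other cells were higher there as well. The 10 endothelial markers, all 10 called higher, summed to 20.9 to 27.0 CPM in controls and 111 to 139 CPM in the others. The 10 pericyte and smooth muscle markers, all called higher, summed to 311 to 360 and 576 to 748 CPM, with Abcc9 at 0 reads in every control. Abcc9, and 1 endothelial marker also at 0 in every control, entered the test through the other group alone and had to differ. The 10 fibroblast markers, of which 8 were called higher and 1 lower, summed to 8340 to 9970 and 14200 to 17200 CPM. They include Thy1, whose form differs between the 2 lines by label. The 10 leukocyte markers, of which 1 was called higher, summed to 22.0 to 85.7 and 49.8 to 109 CPM. The part of all these cell markers in the results on chaperones was not tested. In such bulk samples fewer cells of a type and less RNA per cell cannot be told apart.

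Both heat shock factors had lower levels in libraries labelled Zfx-KO. Hsf1, on chromosome 15 (76477445 to 76500972), is the main activator of the heat shock response and had 7.0, 6.99 and 7.19 log2 CPM in control replicates 1 to 3 and 6.52, 6.58 and 6.63 in those labelled Zfx-KO. Hsf2, on chromosome 10 (57486396 to 57513135), a relative that can form mixed trimers with Hsf1, had 5.13, 5.39 and 5.11 in the controls and 4.72, 4.74 and 4.49 in the others. The groups overlapped for neither gene. The log2 fold change was -0.48 for Hsf1 (SE 0.07, adjusted p = 0.000271) and -0.56 for Hsf2 (SE 0.10, adjusted p = 0.000959). Of 10 tested genes listed as other heat shock factors and regulators of protein quality control, 5 fell and none rose. Beside this, 19.5% of all genes tested were called lower, and 32.9% of those with a mean of at least 3 log2 CPM. Hsf4, a factor best known from the lens, fell by 0.98 log2 units, and Vcp, an ATPase that extracts ubiquitin-tagged proteins, and Sqstm1, an autophagy receptor, each fell by 0.70. Summed over the 11 genes of the list, the level was 1230 to 1300 CPM in the controls and 893 to 911 CPM in the others, without overlap.

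The stress-inducible HSP70 genes went the other way. Hspa1a and Hspa1b, intronless neighbors on chromosome 17 that encode nearly the same inducible HSP70, are the pair whose promoters are shown above. Hspa1a had 2.36, 1.75 and 2.43 log2 CPM in the controls and 4.10, 3.80 and 4.09 in those labelled Zfx-KO, a 3.5-fold rise (log2 fold change 1.81, SE 0.18, adjusted p = 2.11e-05). Hspa1b had 8.39, 8.88 and 8.88 log2 CPM in the controls and 9.06, 9.41 and 9.28 in the others. No library of one group reached into the other for either gene and the gap was narrow for Hspa1b. Hspa1b rose 1.45-fold (log2 fold change 0.54, SE 0.13, adjusted p = 0.00767), and the call was lost at equal medians (0.32, adjusted p = 0.072), without the filter on low values (adjusted p = 0.189) and without the variance trend (adjusted p = 0.0666). Of the 50-base windows of Hspa1a, 66.3% also occur in transcripts of other genes, mostly Hspa1b, and of those of Hspa1b 62.3%, so the split of reads between the copies is uncertain. Their log2 ratio, Hspa1a minus Hspa1b, was -6.53 ± 0.55 (SD, n = 3) in the controls and -5.26 ± 0.33 in the others.

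Dnajb1, the J-protein that works with inducible HSP70 and is itself a heat shock target, has few such shared windows (0.412%). It had 8.03, 8.32 and 8.45 log2 CPM in the controls and 8.88, 9.18 and 9.18 in those labelled Zfx-KO. The groups did not overlap, and Dnajb1 rose 1.76-fold (log2 fold change 0.82, SE 0.11, adjusted p = 0.000226). Within each group its lowest library was also the lowest library of Hspa1b, and the log2 difference Dnajb1 minus Hspa1b was -0.45 ± 0.10 (SD, n = 3) in the controls and -0.17 ± 0.07 in the others. Hspa2, an HSP70 best known from the testis, had 2.43 to 2.49 log2 CPM in the controls and 3.20 to 3.36 in the others and rose 1.75-fold (adjusted p = 0.000133).

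The constitutive HSP70 of the cytosol, Hspa8, did not pass the test. It had 6.13, 6.09 and 5.51 log2 CPM in the controls and 6.05, 6.04 and 5.83 in those labelled Zfx-KO, overlapping ranges with a log2 fold change of 0.06 (SE 0.15, adjusted p = 0.759) that was -0.15 at equal medians. It shares 39.4% of its windows with other transcripts, mostly pseudogenes. The most marked decreases of the family belonged to its distant members Hspa12a and Hspa12b, which have an atypical ATPase domain. Hspa12b, first described in endothelial cells, had 6.36, 6.37 and 6.52 log2 CPM in the controls and 4.55, 4.45 and 4.66 in the others, 0.275 of the control level (log2 fold change -1.86, SE 0.08, adjusted p = 8.31e-08). Hspa12a had 5.13, 4.58 and 5.10 log2 CPM in the controls and 3.75, 3.22 and 3.54 in the others (log2 fold change -1.43, SE 0.16, adjusted p = 6.31e-05). All 10 endothelial markers were higher in the libraries in which Hspa12b was lower, and any link between them was not tested. The HSP70 genes Hspa14, which acts at the ribosome, and Hspa1l had log2 fold changes of -0.10 and 0.46 and passed the test in neither direction. At equal medians Hspa14 was called lower (-0.31, adjusted p = 0.00155).

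The summed level of the 22 immediate early genes, first responders to growth factors and stress, was 2540 to 3120 CPM in the controls and 6000 to 6420 CPM in those labelled Zfx-KO. Of these 22, 20 rose and 1 fell, with log2 fold changes of 2.69 for Dusp1, 1.49 for Junb and 1.09 for Klf6. The share called higher was 90.9%, beside 24.9% of all genes tested. The genes of this list that rose moved in the same direction as Hspa1a, Hspa1b and Dnajb1, and their part in those results was not tested.

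**Figure D2:**
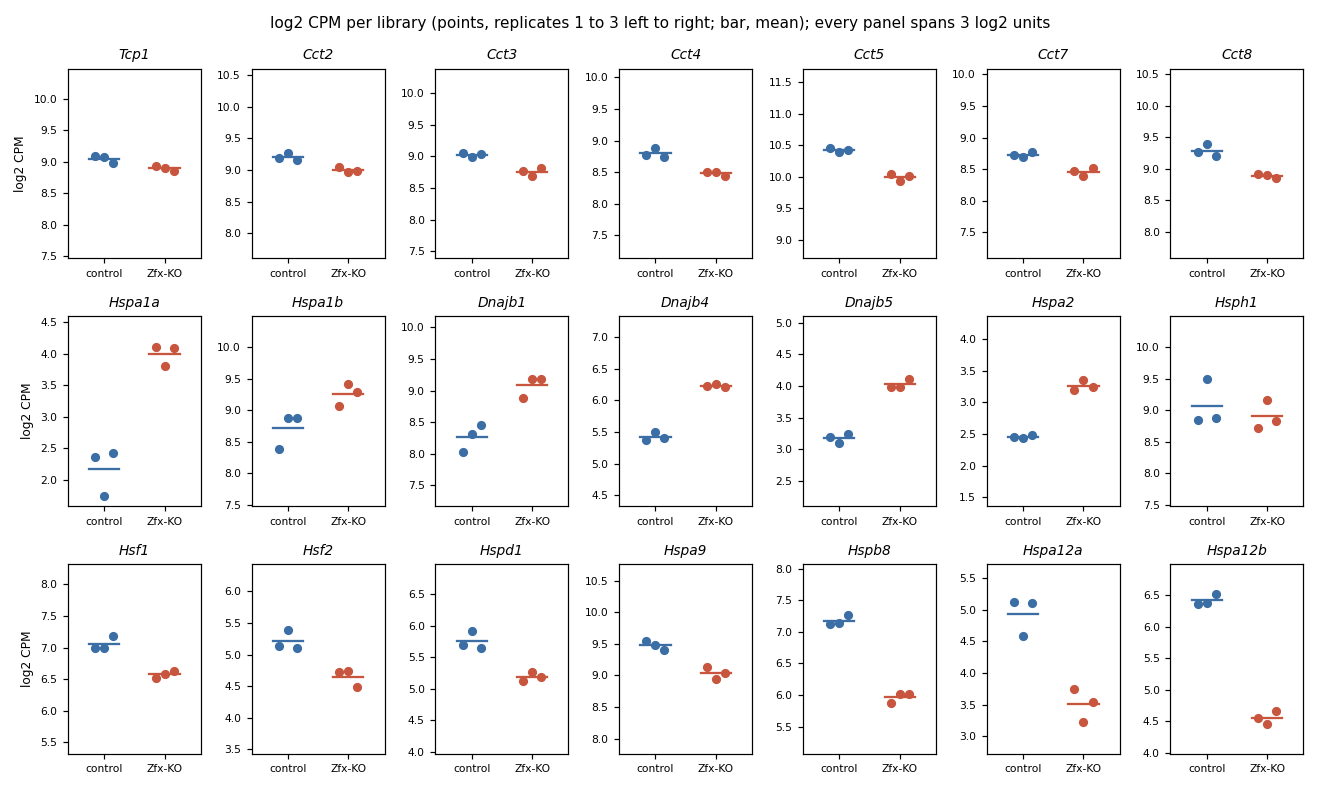
Log2 CPM of 21 chaperone genes in each library (points, replicates 1 to 3 from left to right; bar, group mean; 3 libraries a group), every panel spanning 3 log2 units. The top row holds TRiC subunits, all lower in the libraries labelled Zfx-KO, the middle row inducible and related genes with Hspa1a showing the widest gap and Hsph1 overlapping, and the bottom row genes that fell.

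The HSP110 genes, which exchange nucleotide on HSP70, were mixed. Hspa4 had 8.94, 9.09 and 8.87 log2 CPM in the controls and 8.72, 8.70 and 8.64 in those labelled Zfx-KO, and fell by 0.28 log2 units (SE 0.07, adjusted p = 0.0065; without the filter on low values the adjusted p was 0.0816). Hsph1, the heat-inducible HSP110, had 8.84, 9.49 and 8.87 log2 CPM in the controls and 8.72, 9.16 and 8.83 in the others. The ranges overlapped and the log2 fold change was -0.16 (SE 0.17, adjusted p = 0.46). Hspa4l had 8.10, 8.48 and 7.91 in the controls and 8.34, 8.39 and 8.13 in the others, again with overlap (log2 fold change 0.12, SE 0.13, adjusted p = 0.482; -0.09 at equal medians). Without control replicate 2 the value for Hspa4l was 0.28 and passed the test (adjusted p = 0.0256).

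The HSP90 genes passed the test in neither direction. Hsp90ab1, the constitutive form and the highest of all the chaperone genes per exon length, had 11.69, 11.71 and 11.73 log2 CPM in the controls and 11.55, 11.54 and 11.66 in those labelled Zfx-KO. The groups did not overlap, but the difference was small (log2 fold change -0.13, SE 0.07, adjusted p = 0.176). At equal medians it was -0.34 and passed (adjusted p = 0.012). Hsp90aa1, the inducible form, had 5.07, 5.46 and 5.21 in the controls and 5.20, 5.47 and 5.37 in the others, with overlap (log2 fold change 0.10, SE 0.10, adjusted p = 0.483; -0.11 at equal medians). It shares 47.5% of its windows with other transcripts, against 3.44% for Hsp90ab1, so its level is the less certain of the pair.

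Of 37 listed cochaperones of HSP90 and HSP70, 16 fell, 6 rose and 15 passed the test in neither direction, with a median log2 fold change of -0.13 beside 0.09 over all genes tested. The shares were 43.2% lower and 16.2% higher, beside 32.9% and 25% among all genes with a mean of at least 3 log2 CPM. Stip1, which bridges HSP70 and HSP90, had 9.08, 9.32 and 9.20 log2 CPM in the controls and 8.49, 8.66 and 8.64 in the others and fell by 0.60 log2 units (adjusted p = 0.000118). Tomm34, a cytosolic adaptor for mitochondrial import, fell by 0.43, and Unc45b, a myosin chaperone of muscle, rose by 2.11 from a scarce level. At equal medians 28 of the 37 fell and 1 rose. Under quantile normalization 16 fell and 6 rose, the same counts as without rescaling. The rises other than that of Unc45b therefore depend on which scaling is used.

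Of 9 TRiC genes tested, 6 fell by small amounts, beside 32.9% called lower among all genes with a mean of at least 3 log2 CPM. The genes Cct2, Cct3, Cct4, Cct5, Cct7 and Cct8 were called lower, Tcp1, Cct6b and Cct8l1 were not called, and no TRiC gene was called higher. Cct5, on chromosome 15 (31590800 to 31601847), had 10.46, 10.39 and 10.42 log2 CPM in the controls and 10.05, 9.94 and 10.02 in those labelled Zfx-KO. This subunit had the largest change of the class among the abundant genes, 0.748 of the control level (log2 fold change -0.42, SE 0.06, adjusted p = 0.00033). Cct8, on chromosome 16, had 9.26, 9.39 and 9.20 in the controls and 8.91, 8.90 and 8.85 in the others (log2 fold change -0.40, adjusted p = 0.000608). Cct4 fell by 0.31, Cct3 by 0.27 and Cct7 by 0.27 log2 units. For all of these the groups did not overlap.

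Cct2 fell by 0.20 log2 units, from 9.19, 9.27 and 9.16 to 9.05, 8.97 and 8.99 log2 CPM (adjusted p = 0.0169). Its call was lost without Zfx-KO replicate 2 (-0.18, adjusted p = 0.063), without Zfx-KO replicate 3 (-0.19, adjusted p = 0.0662), without the filter (adjusted p = 0.0713) and without the variance trend (adjusted p = 0.0672). Tcp1, which encodes the alpha subunit, had 9.09, 9.08 and 8.98 in the controls and 8.94, 8.90 and 8.86 in the others. Its libraries did not overlap and its log2 fold change was -0.15 (SE 0.06, adjusted p = 0.0537), which passed the test at equal medians (-0.37, adjusted p = 0.000544), without control replicate 3 (-0.19, adjusted p = 0.0321), with limma voom on the reads (adjusted p = 0.0376) and in 3 further alternatives at an adjusted p from 0.0483 to 0.05. The subunit gene Cct6a, not typed as protein coding in the table and looked up after the other values were seen, had 9.21, 9.32 and 9.13 log2 CPM in the controls and 8.75, 8.68 and 8.65 in the others (log2 fold change -0.53, SE 0.06, adjusted p = 8.84e-05). Cct6b, a form of Cct6a best known from the testis, and Cct8l1 were near the floor of the table, with 47 and 6 reads over the controls.

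Summed over the TRiC genes, the level was 4540, 4560 and 4420 CPM in the controls and 3720, 3550 and 3640 CPM in those labelled Zfx-KO, without overlap. The prefoldin and TRiC cofactor list, genes that hand actin and tubulin to TRiC or take them from it, did not share one direction: 5 of 17 rose, 4 fell and 8 passed the test in neither direction, shares of 29.4% and 23.5% beside 24.9% and 19.5% of all genes tested. Uri1, a prefoldin-like protein, fell by 1.1 log2 units, whereas the tubulin cofactors Tbce and Tbcb rose by 0.50 and 0.34. At equal medians 1 of the 17 rose and 7 fell, and under quantile normalization 6 rose and 4 fell.

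The mitochondrial chaperonin pair split. Hspd1 (HSP60) and its lid Hspe1 (HSP10) are neighbors on chromosome 1 read in opposite directions, and the marked element shown above precedes the RefSeq start of each. Hspd1 had 5.70, 5.91 and 5.65 log2 CPM in the controls and 5.13, 5.26 and 5.18 in those labelled Zfx-KO, and fell by 0.57 log2 units (SE 0.08, adjusted p = 0.000248). Hspe1 had 2.65, 3.01 and 2.84 in the controls and 2.91, 3.25 and 3.19 in the others, overlapping groups with a log2 fold change of 0.28 (SE 0.13, adjusted p = 0.115). The log2 difference Hspd1 minus Hspe1 was 2.92 ± 0.12 (SD, n = 3) in the controls and 2.07 ± 0.13 in the others, without overlap. Both genes share windows with other transcripts, 39.7% for Hspd1 and 18.4% for Hspe1, so their levels are uncertain. The pseudogene row Hspd1-ps3 had more reads than the gene itself and fell by 0.64, so that the log2 difference Hspd1 minus Hspd1-ps3 was -0.49 ± 0.07 in the controls and -0.42 ± 0.10 in the others.

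Hspa9, the HSP70 of mitochondria (mortalin), had 9.55, 9.48 and 9.40 log2 CPM in the controls and 9.13, 8.95 and 9.04 in the others and fell by 0.43 log2 units (SE 0.07, adjusted p = 0.000465). Of 8 genes of the group whose proteins work in mitochondria, 3 fell, none rose and 5 passed the test in neither direction. The share called lower was 37.5%, near the 32.9% of all genes with a mean of at least 3 log2 CPM. The third of the falls was Dnajc15, a J-protein of the import motor (-0.23, adjusted p = 0.0333), whose call was lost when any of 5 libraries was left out (adjusted p from 0.0584 to 0.133). Of 20 other mitochondrial chaperones and proteases, 5 rose and 4 fell, 25% and 20%. The shares over all genes tested were 24.9% and 19.5%. Among genes with a mean of at least 3 log2 CPM they were 25% and 32.9%. Clpx, the unfoldase of a matrix protease, fell by 0.82, and Tomm20, an import receptor, by 0.73, while Hscb, a J-protein for iron-sulfur cluster assembly, rose by 0.63. At equal medians 1 of the 20 rose and 9 fell, and under quantile normalization 7 rose and 4 fell.

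Small heat shock proteins, which hold unfolded proteins without ATP, split. The 3 members with more than a few reads in the controls fell. Hspb8, which works with Bag3 in selective autophagy, had 7.12, 7.14 and 7.26 log2 CPM in the controls and 5.87, 6.01 and 6.02 in those labelled Zfx-KO, 0.434 of the control level (log2 fold change -1.21, SE 0.07, adjusted p = 4.67e-07). Hspb6, known from muscle, had 3.21, 3.05 and 3.06 in the controls and 2.02, 2.19 and 1.74 in the others and fell by 1.13. Hspb11, part of the intraflagellar transport machinery rather than a typical chaperone, fell by 0.52. Bag3 itself, also a heat shock target, had 6.79 to 7.05 log2 CPM in the controls and 6.90 to 7.22 in the others, with overlap, and a log2 fold change of 0.15 (adjusted p = 0.226; -0.06 at equal medians).

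The other 3 tested members rose from 1 to 3 reads over all controls together. Hspb1 (HSP25), a classical heat-inducible member, had 0, 0 and 1 control reads and 7, 13 and 10 reads in those labelled Zfx-KO. Hspb2 had 2, 1 and 0 against 17, 11 and 20 reads, and Hspb7 had 0, 1 and 0 against 3, 7 and 11 reads. The ratio of the group totals after scaling to depth was 27.2 for Hspb1 (95% counting interval 4.53 to 1110), 14.5 for Hspb2 (4.68 to 72.9) and 19.1 for Hspb7 (3.07 to 789). These intervals cover counting error only. Limma called all 3 higher, although they entered the test through the group where they are high (adjusted p = 0.00126, 0.000867 and 0.0053), with fitted log2 fold changes of 3.06, 3.14 and 2.49 that depend on the pseudocount and fell to 1.67, 1.96 and 1.24 when it was multiplied by 4. Without the filter on low values, the calls of Hspb1 and Hspb7 were lost (adjusted p = 0.141 and 0.336).

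Hspb1 shares 50.1% of its windows with other transcripts, so its level is uncertain. Hspb2 overlaps Cryab, the alpha B crystallin gene on the other strand, by up to 252 exonic bases, and the strand used in counting was not stated. Cryab, the small heat shock protein of lens and muscle, had 3.0, 2.32 and 3.29 log2 CPM in the controls and 5.02, 5.07 and 5.30 in the others and rose by 2.26. Hspb2 and Hspb7 are known from muscle, and the pericyte and smooth muscle markers were higher in the same libraries. Hspb6, also known from muscle, went the other way at higher counts (1103 reads over the controls and 541 in the others). The part of the markers in these changes was not tested. Of the 2 small heat shock genes not tested, Hspb9 had 6 reads in the controls and 0 in the others, and Hspb3 had 0 and 1.

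**Figure D3:**
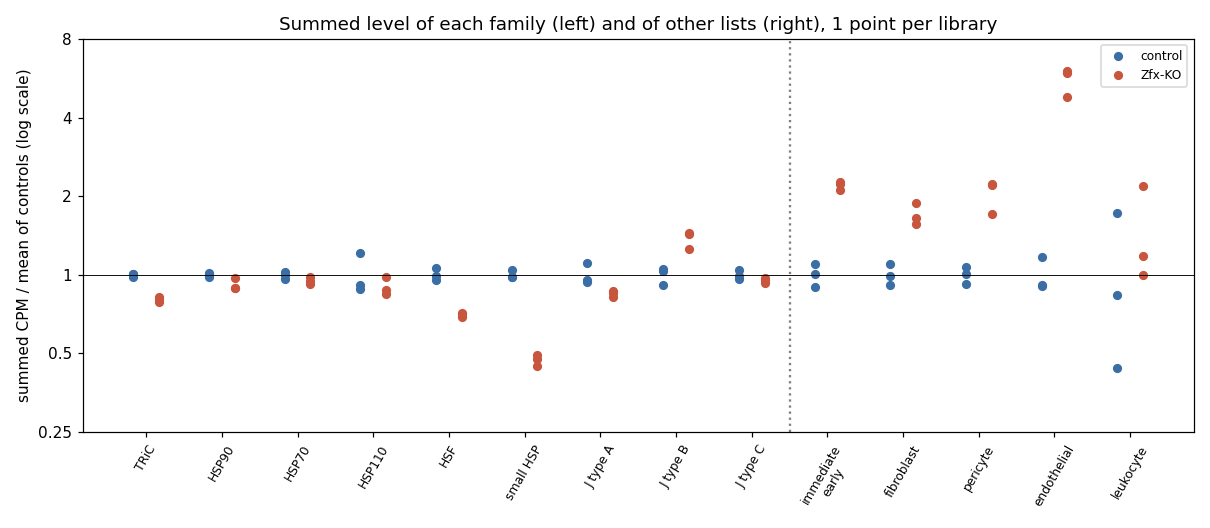
Summed CPM of each chaperone class (left of the dotted line) and of other lists (right), 1 point per library, divided by the mean of the 3 controls, on a log axis. Every class drawn except the type B J-proteins lies below 1 in all 3 libraries labelled Zfx-KO, the small heat shock proteins the furthest. The type B J-proteins lie above 1, beside higher sums of immediate early, fibroblast, pericyte and endothelial genes.

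Among the J-proteins, type B had the largest share of upward calls: 4 of 8 tested rose and 2 fell. These shares of 50% and 25% stand beside 24.9% and 19.5% of all genes tested. Summed over the type B genes, the level was 581, 657 and 670 CPM in the controls and 802, 921 and 912 CPM in those labelled Zfx-KO, without overlap, and Dnajb1 was the largest contributor. Dnajb4 and Dnajb5, close relatives of Dnajb1 in the cytosol, rose to a similar degree. Dnajb4 had 5.37, 5.50 and 5.41 log2 CPM in the controls and 6.22, 6.26 and 6.21 in the others (log2 fold change 0.81, SE 0.06, adjusted p = 3.59e-06). Dnajb5 had 3.19, 3.10 and 3.24 in the controls and 3.98, 3.99 and 4.11 in the others (log2 fold change 0.85, SE 0.09, adjusted p = 3.28e-05). None of their windows is shared with other transcripts, and all 15 alternative settings kept both calls. The fourth, Dnajb12, rose by 0.18 (adjusted p = 0.0267) but had a log2 fold change of -0.04 at equal medians. It also lost its call without Zfx-KO replicate 1 (adjusted p = 0.0967), without Zfx-KO replicate 3 (adjusted p = 0.082) and without control replicate 2 (adjusted p = 0.0658).

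Dnajb14, a J-protein in the membrane of the endoplasmic reticulum and the nearest relative of Dnajb12, moved the other way. It had 5.78, 5.99 and 5.71 log2 CPM in the controls and 4.98, 4.99 and 4.8 in the others, 0.532 of the control level (log2 fold change -0.91, SE 0.09, adjusted p = 1.97e-05). Dnajb2, which delivers ubiquitylated proteins for degradation, fell by 0.35 (adjusted p = 0.00488; 0.0917 without the filter). Dnajb6, whose promoter holds the longer heat shock motif, had 2.71 to 2.94 log2 CPM in the controls and 2.90 to 2.94 in the others and passed the test in neither direction, with a log2 fold change of 0.11 that was -0.10 at equal medians. Of the type B genes not tested, Dnajb3 had 0 reads in the controls and 7 in the others, Dnajb7 had 0 and 1, and Dnajb8 had 0 in all libraries.

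Of the 4 type A J-proteins, which resemble the bacterial DnaJ most closely, 2 fell and none rose. Lower calls made up 19.5% of all genes tested and 32.9% of those with a mean of at least 3 log2 CPM. Dnaja4 had 3.31, 3.41 and 3.37 log2 CPM in the controls and 1.95, 2.11 and 2.0 in those labelled Zfx-KO, 0.394 of the control level (log2 fold change -1.34, SE 0.11, adjusted p = 5.85e-06). It overlaps Wdr61 on the other strand by up to 1581 exonic bases, and Wdr61 had a log2 fold change of 0.14 (adjusted p = 0.121; -0.07 at equal medians). Dnaja2, a partner of Hspa8, had 7.71, 7.85 and 7.68 log2 CPM in the controls and 7.51, 7.42 and 7.38 in the others and fell by 0.31 (SE 0.06, adjusted p = 0.00299). Dnaja1, a farnesylated and heat-inducible form with the unit shown above in its promoter, had 6.08, 6.55 and 5.92 in the controls and 5.86, 6.06 and 5.84 in the others. Its groups overlapped, with a log2 fold change of -0.26 (adjusted p = 0.157), and it passed the test at equal medians (-0.47, adjusted p = 0.0107) and without control replicate 3 (-0.39, adjusted p = 0.0404).

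The 25 type C J-proteins, which share only the J domain and serve particular sites or substrates, mostly did not pass the test: 4 rose, 4 fell and 17 passed it in neither direction. The shares were 16% higher and 16% lower, beside 24.9% and 19.5% of all genes tested. Dnajc21, a factor for maturation of the large ribosomal subunit, had 7.01, 7.05 and 6.94 log2 CPM in the controls and 6.46, 6.35 and 6.41 in those labelled Zfx-KO (log2 fold change -0.59, SE 0.06, adjusted p = 2.09e-05). Dnajc22, a membrane protein, had 4.14, 3.89 and 4.05 in the controls and 4.63, 4.70 and 4.61 in the others (log2 fold change 0.62, SE 0.08, adjusted p = 0.000205). In both genes the groups did not overlap. Dnajc1, of the endoplasmic reticulum membrane, fell by 0.41 (adjusted p = 0.00122), and Dnajc4 rose by 0.37 (adjusted p = 0.00835), a call lost at equal medians (0.16, adjusted p = 0.25).

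The 2 type C genes that changed at least 2-fold were scarce. Dnajc27, a small GTPase with a J domain, had control reads of 4, 0 and 9 against 19, 14 and 27 in the others (ratio 4.19, 95% counting interval 2.28 to 8.32; adjusted p = 0.024). Its call was lost without any 1 of replicates 1 to 3 labelled Zfx-KO (adjusted p from 0.0501 to 0.0659), and its log2 fold change of 2.40 was 1.44 without control replicate 2. Dnajc6, the auxilin that uncoats clathrin vesicles in neurons, had control reads of 11, 11 and 7 against 2, 2 and 4 in the others (adjusted p = 0.0103; 0.0792 without the filter). At equal medians 2 of the 25 type C genes rose and 13 fell: Dnajc4 and Dnajc24 lost their calls, and the added falls were new calls.

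Per kilobase of exon, Hsp90ab1 was the highest of the group, with 1330 ± 19.8 CPM per kb (SD, n = 3) in the controls and 1220 ± 58.7 in those labelled Zfx-KO. Cct5 followed with 724 ± 18.4 and 542 ± 21.8 CPM per kb. Cct2, Cct8, Hspa9 and Cct3 came next in the controls, between 229 and 288 CPM per kb, and Cct3 at 229 ± 5.01 and Hspa9 at 233 ± 12.4 did not differ beyond their spread. The inducible Hspa1b stood below these in the controls, at 152 ± 27.7 CPM per kb, and at 218 ± 26.6 in those labelled Zfx-KO, where only Hsp90ab1, Cct5 and Cct2 had a higher mean on this scale. Hspa1a stood at 1.56 ± 0.372 and 5.38 ± 0.616 CPM per kb. Over all 76 genes the summed level was 13300, 14000 and 13300 CPM in the controls and 12000, 12200 and 12200 CPM in the others, without overlap.

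**Figure D4:**
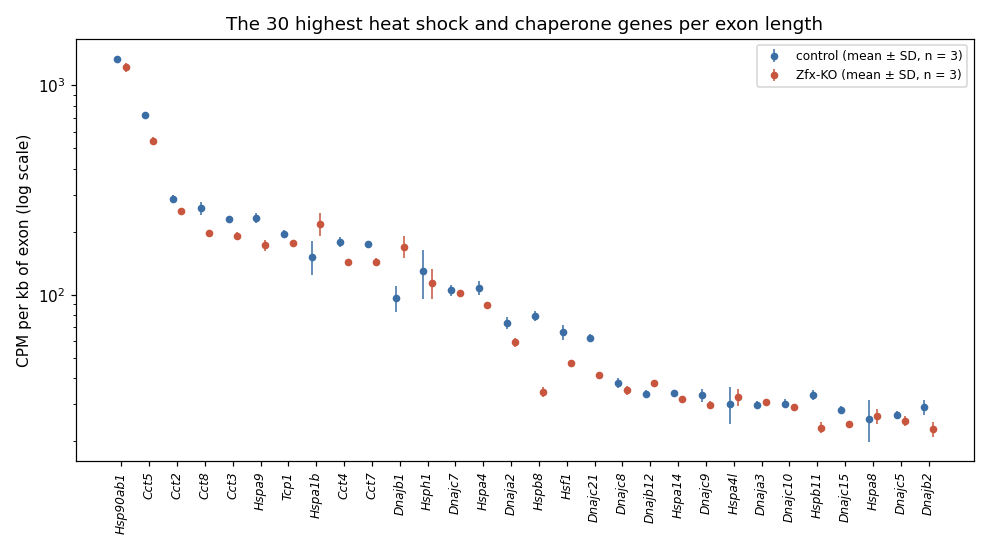
CPM per kilobase of exon (log axis) of the 30 chaperone genes with the highest level, as mean ± SD of 3 libraries, in controls (blue) and in libraries labelled Zfx-KO (red). Hsp90ab1 (1330 and 1220) and Cct5 (724 and 542) stand above the rest, and Hspa1b and Dnajb1 are higher in red where most neighbors are lower.

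Known target genes of heat shock factor 1 did not move one way. Of 22 listed genes, all tested, 6 rose, 6 fell and 10 passed the test in neither direction. The shares were 27.3% higher and 27.3% lower, beside 24.9% and 19.5% of all genes tested. Their summed level was 8310 to 9300 CPM in the controls and 8340 to 9580 CPM in those labelled Zfx-KO, overlapping ranges. The rises included Hspa1a, Hspa1b, Dnajb1, Hspb1 and Cryab. The falls were Hspd1 and 5 cochaperones, Stip1 (-0.60), Chordc1 (-0.60), Cacybp (-0.62), Ahsa1 (-0.36) and Fkbp4 (-0.31). At equal medians 5 rose and 8 fell.

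The chaperones of the endoplasmic reticulum that the rule left out, with others of that compartment, made a list of 21 genes. Of these, 7 rose and 4 fell, shares of 33.3% and 19% beside 24.9% and 19.5% of all genes tested. Among the 6 J-proteins of that compartment inside the group, 1 rose and 2 fell. Hspa5 (BiP), the HSP70 of the endoplasmic reticulum, had 10.79, 10.95 and 10.84 log2 CPM in the controls and 11.16, 11.31 and 11.24 in the others and rose by 0.37 (adjusted p = 0.00228). Sdf2l1, Creld2 and Dnajb11, which are induced by unfolded proteins there, rose by 1.09, 0.61 and 0.39. The genes named here all rose, whereas 10 of the 21 passed the test in neither direction and the lowest log2 fold change was -0.299. At equal medians 2 of the 21 rose and 5 fell, so that not all of the named rises kept their call. Quantile normalization gave 7 that rose and 2 that fell.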

How the data were processed

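The deposited table held 1 log2 value per gene and library for 52636 genes, with 0 columns of other samples. Per the labels' protocols, RNA came from sorted tumor cells, libraries were made from 150 pg of cDNA with a transposase kit and reads were 50 bases long from a single end. The submitters' processing notes name the builds mm10 and GRCh38 without a role. Which aligner and counter were used is not given in the sources. Genes with no reads stood at a floor of -5.48715, and under a prior of 1 read the deposited log2 values gave whole reads within 0.05 reads for 100% of values below 2000 reads. They were therefore read as log2 CPM, and the depth of each library is the sum of these reads. Coordinates are those of the table, and 99.6% of its identifiers were found in GENCODE M21 (GRCm38). Replicate numbers follow the order of the records and pair no libraries. Pairs of replicates differed beyond sampling noise, with a chi-square per gene of 12.3 to 23.5.

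A gene was tested if 3 or more libraries exceeded the floor and its mean exceeded it by 1 log2 unit or more. The 20094 such genes were compared by limma 3.58.1 under R 4.3.3 (empirical Bayes with intensity trend, Benjamini-Hochberg over all genes tested, threshold 0.05, no covariate). Adjusted p-values in the text are from this test unless named otherwise. Fold changes average log2 values that include the prior, so those of scarce genes depend on it. They can lie below the ratio of the group totals, as for Hspb1 (8.35 against 27.2), or above it, as for Dnajc27 (5.28 against 4.19). Shared windows are 50-base stretches of a gene's transcripts found in transcripts of other genes of GENCODE M21. The test was checked on simulated data. Python 3.11.15 with pandas 2.3.3, numpy 2.4.6, scipy 1.17.1 and matplotlib 3.10.9 was used for the rest.

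The members, lists, tests and alternatives were chosen with earlier results of these data known. By rule the text names Zfx, members called at 2-fold or more, up to 4 called members per class by p, every HSP90, HSP110, HSP60, HSP10, TRiC and HSF gene, the 5 highest per length, 5 heat-inducible genes and up to 3 genes per list. A gene that the rule took is not reported here. Hspa9, Hspa14, Hspa1l, Dnaja1, Dnajb2, Dnajb12, Dnajb6, Dnajc15, Bag3, Wdr61, Cct6a, Hspd1-ps3, Hspa5, the untested genes and the cochaperones named as heat shock targets other than Stip1 were chosen after their values were seen.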

Additional observations from a re-analysis of the deposited data

How the results depend on the processing

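Of the 38 chaperone genes called, 26 were called under each of the 15 alternatives that tested them (Hspb2 among them was untested under the stricter filter), and 1, Dnajb12, changed sign, at equal medians. Leaving out the filter on low values lowered the chaperone genes called higher from 14 to 8, all genes called from 8927 to 5787, and the calls among prefoldin and TRiC cofactors from 9 to 5, mitochondrial chaperones and proteases from 9 to 5 and endoplasmic reticulum chaperones from 11 to 4. Equal medians raised the chaperone genes called lower from 24 to 38, moved their median log2 fold change to -0.308, and left 7 calls among the endoplasmic reticulum chaperones. Over all genes tested, the same setting raised those called lower from 3924 to 6357. Without the variance trend, 4 mitochondrial and 7 endoplasmic reticulum genes were called. The cause was not tested. Leaving out 1 library at a time lost between 1 and 5 of the 38 calls and added between 0 and 4. The stricter filter left 6 chaperone genes untested. No paired analysis was possible because the labels give no replicate numbers, and those used here follow only the order of the records. At this depth, differences of genes with under about 3 reads a library were not detectable, and levels of genes with close copies are uncertain.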
